A study of Mus musculus with 2 samples.

Results

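The genes described here are the 6 genes of the CD28 and B7 costimulation system: the receptors Ctla4, Cd28 and Icos and the ligands Icosl, Cd80 and Cd86. They were chosen by name from the 31253 genes of the count tables and not by a cut on a measured value, and all 6 were present. Earlier results of these data were known when they were chosen. They were followed over T cell subsets, B cells, dendritic cells and macrophages, each defined by marker genes, in host immune cells sorted from mouse gliomas. One library came from EM-treated tumours and its title adds 72 h. The other came from tumours treated with PBS (phosphate-buffered saline), for which the labels give no time. The meaning of EM is not spelled out in the labels. Both libraries hold living cells that carry CD45.2 and lack CD45.1, which the labels call endogenous, and the series title speaks of adoptive macrophages. The labels give no mouse strain, age, glioma line or number of pooled animals. BD Rhapsody, a microwell method with barcoded beads, was used for both libraries.

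T cells need a second, costimulatory signal beside antigen, and CD28 delivers it when it binds CD80 or CD86 on an antigen-presenting cell. CTLA-4 binds the same ligands more tightly and can strip them from the presenting cell, and it is carried at high level by regulatory T cells, which restrain immune responses and are marked by the factor Foxp3. ICOS, a relative of CD28 that is induced on activated T cells, has its own ligand, ICOSL, on B cells, dendritic cells and macrophages.

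With 1 library per group there was no spread between replicates and no test. Each value is a description of 2 libraries, and intervals in brackets cover counting error only. Levels are CPM, the UMIs (unique molecular identifiers, 1 per captured transcript) of a gene per 1000000 UMIs summed over a class. The ratio is log2 of EM over PBS, so a negative ratio is a lower level in EM. After filtering, EM held 7967 cells and 19302929 UMIs (median 2016 per cell), and PBS 7756 cells and 43538431 UMIs (median 4303). Because EM was shallower, shares of cells with a UMI are given after every cell was thinned to 1000 UMIs, which left out 814 EM and 702 PBS cells. Of 34 members' ratios whose interval excluded equality on summed UMIs and that could be recomputed after thinning, 25 still excluded it and 9 did not, with fewer UMIs behind each. The libraries also differed in sex-linked RNA, with Xist at 384 CPM in EM and 10.6 CPM in PBS and Ddx3y at 4.46 CPM in EM and 192 CPM in PBS, so treatment and this difference cannot be told apart. The matrices shared 66 barcodes, and without them no ratio of a member changed direction.

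The receptor genes lie side by side on mouse chromosome 1, and the B7 ligand genes Cd80 and Cd86 both lie on chromosome 16. In GRCm38, Cd28 spans chr1:60716800-60773359, Ctla4 chr1:60887000-60915832 and Icos chr1:60977927-61000320, all on the plus strand. Cd86 spans chr16:36603869-36666081 on the minus strand, Cd80 chr16:38455561-38496335 on the plus strand, and Icosl chr10:78069302-78083913 on the plus strand. All are protein-coding. The pseudogene Rpl18-ps1 overlaps Ctla4, and the gene model Gm37039 overlaps Icos, each on the same strand, so their reads could be split or counted uncertainly.

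Promoter windows are shown for the 3 members found in the RefSeq promoter table of GRCm38.p6, because Icosl and Cd80 differed between the libraries in opposite directions in dendritic cells and Ctla4 was lower in EM in every large T cell subset. Each is a 300-base window around the RefSeq start site, plus strand, 5′ to 3′. The windows are chr1:60908775-60909074 for Ctla4, chr10:78069118-78069417 for Icosl and chr16:38458683-38458982 for Cd80, and those of Ctla4 and Cd80 lie inside the gene spans above because the annotations begin these genes at different places. Capitals mark matches on either strand to any of 3 patterns: GGAAA, the core bound by NFAT factors, GGGNNTTCC, a form of the NF-kB site, and GAAANNGAA, a core of the interferon-stimulated response element.
Ctla4: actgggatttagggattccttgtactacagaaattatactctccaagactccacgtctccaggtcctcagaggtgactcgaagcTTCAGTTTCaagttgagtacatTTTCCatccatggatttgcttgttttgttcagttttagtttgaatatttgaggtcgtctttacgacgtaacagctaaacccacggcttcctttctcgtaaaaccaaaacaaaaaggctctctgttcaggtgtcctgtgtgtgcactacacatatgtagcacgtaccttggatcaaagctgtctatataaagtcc
Icosl: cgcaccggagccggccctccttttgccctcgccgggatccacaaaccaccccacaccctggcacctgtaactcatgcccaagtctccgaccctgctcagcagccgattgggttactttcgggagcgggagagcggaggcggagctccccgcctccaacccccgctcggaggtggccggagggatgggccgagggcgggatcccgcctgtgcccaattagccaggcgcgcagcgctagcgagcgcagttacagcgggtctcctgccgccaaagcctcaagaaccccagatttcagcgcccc
Cd80: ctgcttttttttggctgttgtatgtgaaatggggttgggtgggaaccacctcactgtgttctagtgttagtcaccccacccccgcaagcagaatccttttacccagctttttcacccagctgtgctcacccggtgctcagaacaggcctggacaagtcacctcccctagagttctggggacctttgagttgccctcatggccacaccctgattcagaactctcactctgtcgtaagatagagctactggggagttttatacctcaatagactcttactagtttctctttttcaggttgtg
The Ctla4 window held 1 match to GAAANNGAA, beginning at -166 from the start site, and 1 to GGAAA, beginning at -144, both on the minus strand and without overlap, so that each shows as its reverse complement. The Icosl and Cd80 windows held no match and stand in lower case throughout. Of 32851 promoter windows of this length, 61.3% held GGAAA, 5.82% held GGGNNTTCC and 8.56% held GAAANNGAA. A match is a description of letters and not a binding site.

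Ctla4, the inhibitory receptor, was lower in EM in regulatory, CD4 and CD8 T cells, while Cd28, its stimulatory counterpart, was higher in EM in all of these on summed UMIs and, at equal depth, beyond its counting interval in CD8 T cells only. Icos was split: higher in EM in regulatory T cells, near equal over the CD4 T cell class, whose clusters differed, and lower in CD8 T cells. T cells carrying Foxp3 and no Cd8 transcript numbered 669 in EM and 130 in PBS. Regulatory genes that the gate did not use were high in both libraries in these cells: Ikzf2, a transcription factor of regulatory T cells, stood at 1716 CPM in EM and 1708 CPM in PBS. Il2ra, the interleukin-2 receptor chain CD25, stood at 1941 CPM in EM and 1140 CPM in PBS. A single Foxp3 UMI was the whole evidence for 32.7% of these cells in EM and 18.5% in PBS.

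In Foxp3-positive T cells Ctla4 stood at 1386 CPM in EM and 2492 CPM in PBS, a log2 ratio of -0.85 [-0.94 to -0.75]. At 1000 UMIs per cell, 67.9% [64.1 to 71.6] of 633 EM cells and 89.1% [82.3 to 93.9] of 128 PBS cells held a Ctla4 UMI. Macrophages, which should lack the gene, gave a background of 1.79% in EM and 1.07% in PBS at the same depth. In CD4 T cells without Foxp3 (1045 EM and 465 PBS cells) Ctla4 stood at 614 CPM in EM and 1094 CPM in PBS, a ratio of -0.83 [-0.93 to -0.74]. In CD8 T cells (2538 EM and 3039 PBS cells) it stood at 267 CPM in EM and 561 CPM in PBS, a ratio of -1.07. In these 3 classes the intervals of the libraries did not overlap. In natural killer (NK) cells it stood at 54.1 CPM in EM and 154 CPM in PBS (-1.51), but after thinning the ratio was -0.87 [-1.89 to 0.18], from 20 EM and 16 PBS UMIs, and included equality.

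Among classes of 50 or more cells in both libraries, the order of Ctla4 levels was the same in both libraries: Foxp3-positive T cells, then CD4 T cells, then the T cells assigned to no subset, then CD8 T cells. Neighbours in that order lay outside each other's counting intervals in both libraries. The lower end was less ordered. In EM, NK cells (54.1 CPM), B cells (51.0 CPM), Ly6c2 monocytes (43.3 CPM) and dendritic cells (40.0 CPM) had overlapping intervals. In PBS, B cells (103 CPM) overlapped with NK cells (154 CPM). However, 54 of the 55 PBS B cells lay in cluster 20 and held 6 of the 11 Ctla4 UMIs, a level of 57.4 CPM.

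**Figure D1:**
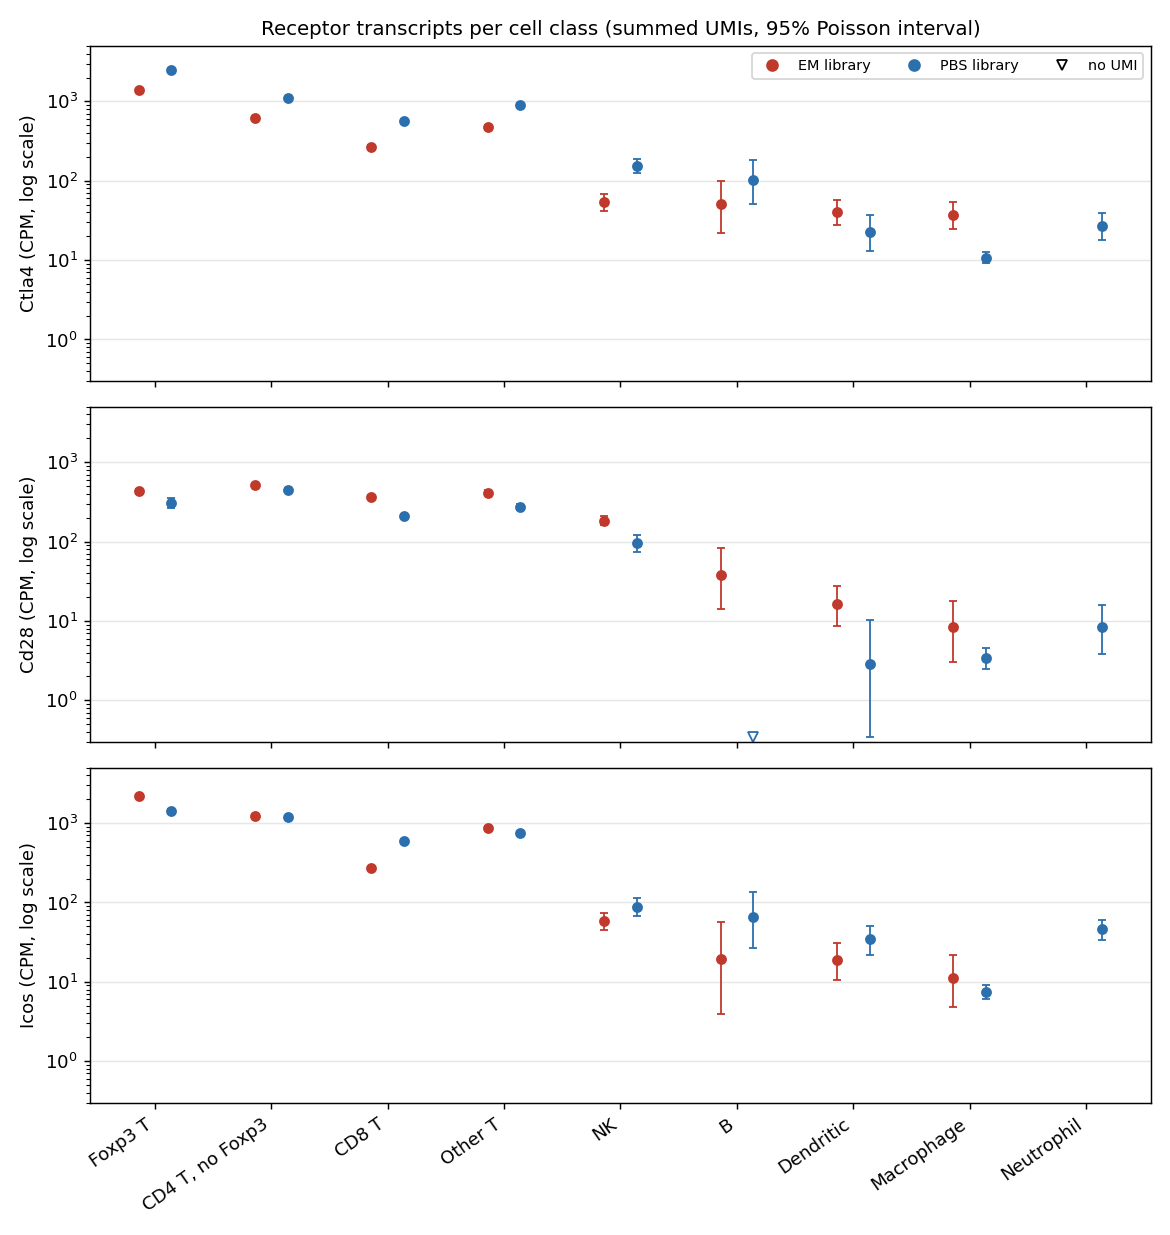
Levels of Ctla4, Cd28 and Icos in CPM on a log scale, by cell class, with EM in red left of PBS in blue. Points are summed UMIs of 1 library with a 95% Poisson interval, and open triangles mark a class without a UMI. Ctla4 lies lower in EM in the 4 T cell classes, Cd28 lies higher in EM in them, and Icos lies higher in EM in Foxp3-positive cells and lower in CD8 T cells. Neutrophils are drawn for PBS only, since EM held 1.

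Cd28 stood at 433 CPM in EM and 306 CPM in PBS in Foxp3-positive T cells, a ratio of 0.50 [0.26 to 0.75]. CD4 T cells held it at 524 CPM in EM and 449 CPM in PBS (0.22 [0.10 to 0.35]), the smallest of the differences. In CD8 T cells it stood at 370 CPM in EM and 211 CPM in PBS (0.81 [0.73 to 0.88]). CD4 T cells had the highest Cd28 level of any class in both libraries, and in EM the intervals of the Foxp3-positive cells and of the T cells assigned to no subset (415 CPM) overlapped. The share of CD8 T cells with a Cd28 UMI at 1000 UMIs was 28.7% [26.9 to 30.5] in EM and 18.9% [17.5 to 20.3] in PBS, against 0.893% of EM and 0.381% of PBS macrophages. After thinning, the Cd28 ratio was 0.22 [-0.22 to 0.69] in Foxp3-positive and 0.12 [-0.11 to 0.36] in CD4 T cells, and both intervals included equality. For these classes the shares overlapped as well: 31.6% in EM and 29.7% in PBS for Foxp3-positive cells, and 36.0% in EM and 32.5% in PBS for CD4 T cells. NK cells also had more Cd28 in EM, at 184 CPM against 95.4 CPM in PBS.

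Icos stood at 2171 CPM in EM and 1424 CPM in PBS in Foxp3-positive T cells, a ratio of 0.61 [0.50 to 0.72]. It was the only class of the 4 named here in which Icos was clearly higher in EM. CD4 T cells held 1212 CPM in EM and 1179 CPM in PBS, and the interval of the ratio included equality (0.04 [-0.04 to 0.12]). CD8 T cells held 268 CPM in EM and 589 CPM in PBS (-1.14 [-1.21 to -1.06]), and NK cells 58.3 CPM in EM and 88.3 CPM in PBS (-0.60 [-1.11 to -0.08]). The NK ratio turned to 0.35 when cells were thinned to 1000 UMIs. With an Icos UMI at 1000 UMIs were 21.6% of EM and 41.3% of PBS CD8 T cells, and 77.3% of EM and 71.1% of PBS Foxp3-positive cells, against 2.23% of EM and 0.763% of PBS macrophages. In EM, Icos was 8.10 times as high in Foxp3-positive cells as in CD8 T cells, and in PBS 2.42 times.

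A ratio within 1 library does not depend on how deeply that library was sequenced. Of the Ctla4 and Cd28 UMIs together, Ctla4 made up 76.2% [74.6 to 77.7] in EM and 89.1% [87.5 to 90.6] in PBS in Foxp3-positive T cells. For CD4 T cells the share was 54.0% in EM and 70.9% in PBS. In CD8 T cells it made up 41.9% [40.4 to 43.4] in EM and 72.6% [71.8 to 73.4] in PBS, so that Cd28 had the larger UMI count of the pair in EM and Ctla4 in PBS. In NK cells Ctla4 made up 22.7% in EM and 61.7% in PBS. Icos among Icos and Cd28 UMIs was close in Foxp3-positive cells, at 83.4% in EM and 82.3% in PBS, and apart in CD8 T cells, at 42.0% in EM and 73.6% in PBS. These shares are set side by side between libraries only, since UMIs of different genes may be captured unequally.

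The classes differed in make-up between the libraries, so the receptor values were also taken inside clusters and inside parts of the CD8 class, both chosen after seeing the data. Cluster 2 held most Foxp3-positive cells (584 in EM and 109 in PBS), and within it the ratio was -0.96 for Ctla4, 0.33 for Cd28 and 0.54 for Icos. The CD8 class was spread unevenly: cluster 0 held 48 EM and 1760 PBS cells of it, and cluster 1 held 1526 EM and 123 PBS cells. In the 3 clusters with at least 50 CD8 T cells of each library the Ctla4 ratio was -0.91, -1.09 and -0.92, the Cd28 ratio 0.64, 0.93 and 1.09, and the Icos ratio -0.88, -1.49 and -0.70. All 9 of these intervals excluded equality. In CD4 T cells cluster 6 (266 EM and 263 PBS cells) had Cd28 at -0.12 [-0.32 to 0.08] and Icos at -0.29 [-0.42 to -0.16], so Cd28 was not told apart from equality there and Icos was lower in EM, while Ctla4 was lower at -1.10. Cluster 5 had Icos at -0.85 [-1.14 to -0.57] in CD4 T cells. The CD4 class also had 164 EM and 14 PBS cells in cluster 2, where most Foxp3-positive cells lay. Icos in these stood at 2656 CPM in EM (831 UMIs) and 1674 CPM in PBS (57 UMIs). Ctla4 in them stood at 1387 CPM in EM and 1967 CPM in PBS. Their part in the near equal Icos level of the CD4 class was not tested.

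CD8 T cells with UMIs of both Pdcd1 and Havcr2, inhibitory receptors known from exhausted T cells, made up 5.20% of the class in EM (132 cells) and 32.2% in PBS (979 cells). Ctla4 in them stood at 345 CPM in EM and 572 CPM in PBS, a ratio of -0.73 [-0.94 to -0.53]. In CD8 T cells with Tcf7 or Lef1, factors of naive and memory-like T cells, and no Havcr2 (655 EM and 395 PBS cells), Ctla4 stood at 229 CPM in EM and 430 CPM in PBS (-0.91). In the rest it stood at 270 CPM in EM and 587 CPM in PBS (-1.12). Cd28 was higher in EM in all 3 parts, with ratios of 0.52, 0.97 and 0.82. Icos was lower in EM in all 3, with ratios of -1.10, -0.46 and -1.27. The split uses single UMIs and depends on depth, and the EM cells of the first part had a median of 3959 UMIs against 5774 in PBS. Beside these values, Ly6c2, a surface antigen of monocytes that memory CD8 T cells also carry, stood at 4084 CPM in EM and 657 CPM in PBS in CD8 T cells, and its part in the result was not tested.

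Over the whole library, Ctla4 was nearly equal, at 356 CPM in EM and 357 CPM in PBS, although it was lower in EM in each of the main T cell subsets. Foxp3-positive T cells held 33.1% of all Ctla4 UMIs in EM and 9.28% in PBS, and CD8 T cells held 25.3% in EM and 59.6% in PBS. Over all T cells Ctla4 stood at 506 CPM in EM and 694 CPM in PBS, and with the EM subsets weighted as in PBS it stood at 349 CPM in EM. Icos had the same shift, with 34.2% of its UMIs in EM and 5.48% in PBS in Foxp3-positive cells, and 16.8% in EM and 64.7% in PBS in CD8 T cells. Over all T cells Icos stood at 782 CPM in EM and 683 CPM in PBS, and at 463 CPM in EM with the PBS weights, so the direction turned with the subset mix. Cd28 stood at 409 CPM in EM and 242 CPM in PBS over all T cells, and at 390 CPM in EM with the PBS weights.

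**Figure D2:**
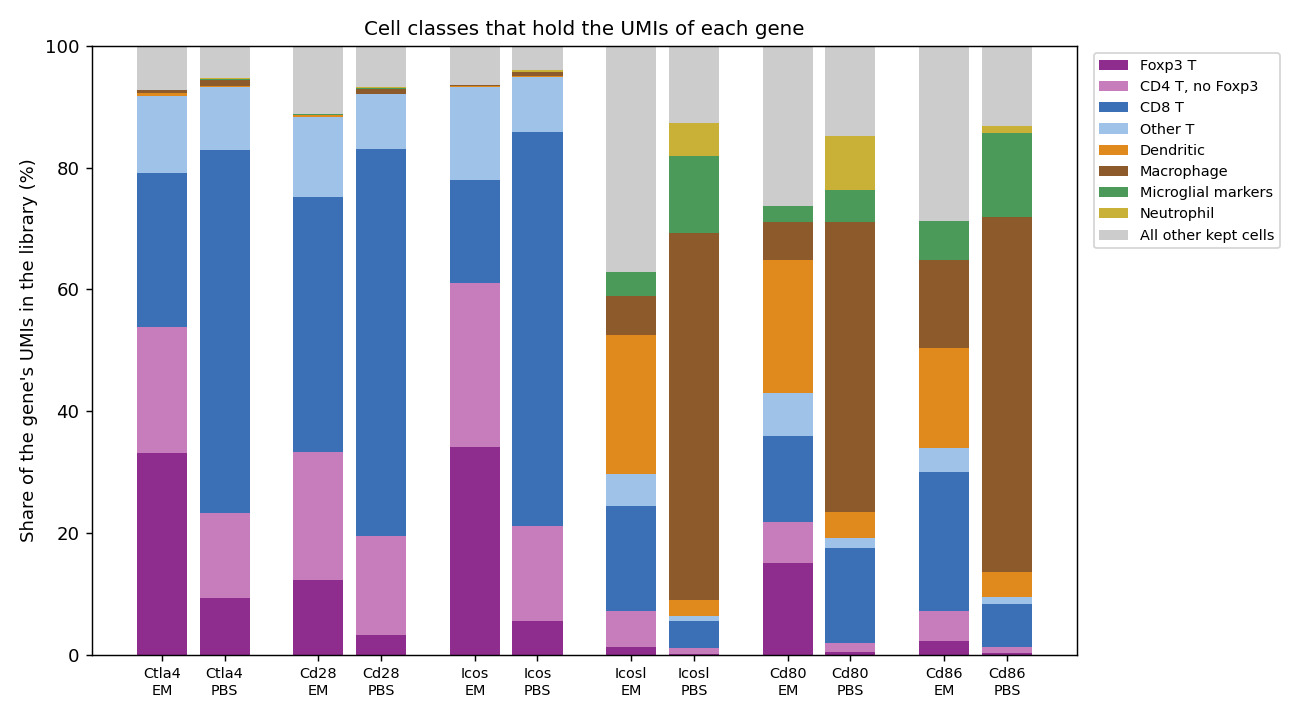
Percent of each gene's UMIs held by each cell class, with the EM bar left of the PBS bar for every gene. Ctla4 and Icos UMIs lie mostly in Foxp3-positive and CD4 T cells in EM and mostly in CD8 T cells in PBS, and the 3 ligands lie mostly in macrophages and microglial cells in PBS. The grey part holds all other kept cells, including those with markers of several lineages.

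In CD4 T cells, Ctla4 was detected more often in cells that also held an Icos UMI. Among CD4 T cells thinned to 1000 UMIs, Ctla4 was detected in 44.3% [40.3 to 48.4] of EM cells with an Icos UMI and in 31.1% [26.6 to 35.8] of EM cells without one. In PBS it was detected in 66.3% [60.3 to 71.9] of cells with and 49.2% [41.9 to 56.6] of cells without an Icos UMI. Foxp3-positive T cells had 70.1% with and 60.4% without an Icos UMI in EM, and 91.2% with and 83.8% without in PBS. Their intervals overlapped in both libraries. CD8 T cells had 23.4% with and 19.6% without an Icos UMI in EM, where the intervals overlapped, and 46.9% with and 37.6% without in PBS, where they did not. With Cd28 in place of Icos, Ctla4 was detected in 24.9% of EM CD8 T cells with a Cd28 UMI and 18.7% without, and in PBS in 42.8% with and 41.1% without, where the intervals overlapped. The CD4 class included 164 EM and 14 PBS cells of cluster 2, where most Foxp3-positive cells lay. In EM these held Icos at 2656 CPM and Ctla4 at 1387 CPM, against 1212 CPM and 614 CPM over the class. Their part in the joint detection was not tested. The cells of a class come from 1 library and share its make-up, so these are descriptions.

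Among ligands, Icosl and Cd80 went in opposite directions in dendritic cells. Icosl, the ligand of ICOS, was higher in EM and Cd80, a ligand shared by CD28 and CTLA-4, was lower in EM. Cd80 was also lower in EM in monocytes, macrophages, cells with microglial markers and, summed over the whole class, CD8 T cells. Cd86, the other B7 ligand, was lower in EM in migratory dendritic cells, C1q macrophages and cells with microglial markers, and near equal in type 1 dendritic cells and B cells. In macrophages and cells with microglial markers the libraries fell largely into different clusters, and the Cd86 ratio of macrophages varied between clusters.

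In dendritic cells (234 in EM and 82 in PBS) Icosl stood at 130 CPM in EM and 34.3 CPM in PBS, a ratio of 1.92 [1.27 to 2.63] from 104 EM and 24 PBS UMIs. At 1000 UMIs, 10.3% [6.59 to 15.2] of EM and 1.25% [0.0316 to 6.77] of PBS dendritic cells held an Icosl UMI, and NK cells, which served as background, 0.835% in EM and 1.90% in PBS. Migratory dendritic cells, marked by Ccr7 and Fscn1 and known to carry antigen to lymph nodes, had the highest Icosl level in EM, at 246 CPM [178 to 332], against 40.5 CPM [13.2 to 94.6] in PBS, but PBS held 14 of these cells. Type 1 dendritic cells, which present antigen to CD8 T cells and express Xcr1 and Clec9a, had 93.4 CPM in EM and 29.7 CPM in PBS (1.65 [0.70 to 2.71]; 111 EM and 40 PBS cells), and under the stricter gate the ratio was 0.64 [-0.80 to 2.30].

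B cells (78 in EM and 55 in PBS) held Icosl at 95.7 CPM in EM and 75.0 CPM in PBS, and the interval of the ratio (0.35) included equality. Macrophages (424 in EM and 1384 in PBS) held 40.1 CPM in EM and 41.8 CPM in PBS (-0.06 [-0.65 to 0.48]). Differences in these classes were not detectable at this depth, with 15 EM and 8 PBS Icosl UMIs in B cells. The macrophage class also differed in make-up. Ly6c2 monocytes gave 22 EM and 23 PBS Icosl UMIs of it, and C1q macrophages 7 EM and 512 PBS UMIs. The ratio was 0.43 [-0.48 to 1.34] in monocytes and -0.97 [-2.29 to 0.09] in C1q macrophages, and the part of the make-up was not tested. CD8 T cells had Icosl at 11.9 CPM in EM and 2.48 CPM in PBS (2.27 [1.70 to 2.85]), but the EM share of cells with a UMI, 1.12%, lay close to the NK background of 0.835%.

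Cd80 stood at 96.2 CPM in EM and 311 CPM in PBS in dendritic cells, a ratio of -1.69 [-2.09 to -1.31]. Migratory dendritic cells had the highest Cd80 level in both libraries, 332 CPM [252 to 430] in EM and 900 CPM [740 to 1084] in PBS. Type 1 dendritic cells held 20.5 CPM in EM and 107 CPM in PBS (-2.38 [-3.60 to -1.32]), though 3 EM and 4 PBS UMIs were left after thinning and that interval included equality. Type 2 dendritic cells, known to prime CD4 T cells, held 68.3 CPM in EM and 381 CPM in PBS, from 20 EM and 14 PBS cells. At 1000 UMIs, 12.7% [8.52 to 17.9] of EM and 27.5% [18.1 to 38.6] of PBS dendritic cells held a Cd80 UMI, against 0 of 479 EM and 0.952% of PBS NK cells.

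In Ly6c2 monocytes (117 in EM and 108 in PBS) Cd80 stood at 43.3 CPM in EM and 358 CPM in PBS, a ratio of -3.05 [-3.85 to -2.33]. In macrophages with C1q transcripts, complement genes of mature tissue macrophages (305 in EM and 1212 in PBS), it stood at 12.2 CPM in EM and 173 CPM in PBS (-3.83 [-5.70 to -2.47]), from 4 EM and 2122 PBS UMIs. The EM cells of this class were shallow, with a median of 842 UMIs against 10092 in PBS, so 111 EM and 1151 PBS cells reached 1000 UMIs. None of those 111 EM cells held a Cd80 UMI, which leaves room for up to 3.27% of cells with a UMI by the exact interval, against 15.3% [13.3 to 17.5] in PBS. Cells with microglial markers (378 in EM and 247 in PBS) held 21.0 CPM in EM and 111 CPM in PBS. These cells also differed in depth and make-up: their median was 867 UMIs in EM and 8984 in PBS, cluster 14 held 295 EM and 5 PBS cells of them, and cluster 18 held 7 EM and 159 PBS cells. The Cd80 ratio there was -1.39 under the stricter cell filter and -4.25 under the stricter gate. Neutrophils, with 645 cells in PBS and 1 in EM, held Cd80 at 425 CPM in PBS and 8.96% of that library's Cd80 UMIs.

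On summed UMIs Cd80 was also lower in EM in CD8 T, CD4 T and NK cells, and not told apart in Foxp3-positive T cells and B cells. CD8 T cells held 7.66 CPM in EM and 48.0 CPM in PBS (-2.65 [-3.09 to -2.24]), with 0.561% of EM and 4.56% of PBS cells positive at 1000 UMIs. Inside clusters 1, 5 and 7 of this class the Cd80 ratio was -0.80 [-2.39 to 1.22], -1.34 [-3.30 to 0.15] and -2.20 [-3.28 to -1.29]. The intervals of clusters 1 and 5 included equality. Cluster 0, with 48 EM and 1760 PBS cells of the class, held 388 of its 794 PBS UMIs. CD4 T cells held 10.4 CPM in EM and 35.7 CPM in PBS (-1.78 [-2.52 to -1.10]). Foxp3-positive T cells differed less, at 32.4 CPM in EM and 41.4 CPM in PBS (-0.36 [-1.08 to 0.40]), and the interval included equality. In EM these cells had the highest Cd80 level of the T cell subsets and 15.01% of all Cd80 UMIs, against 0.473% in PBS. In NK cells Cd80 had no UMI in EM and 11 UMIs (15.7 CPM) in PBS, at least 6.27-fold lower in EM against a limit of 3 counts in the EM class, and the exact interval of the log2 ratio, which also counts the error of the 11 UMIs, lay below -2.10. B cells, at 76.5 CPM in EM and 46.9 CPM in PBS, were not told apart by their intervals.

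**Figure D3:**
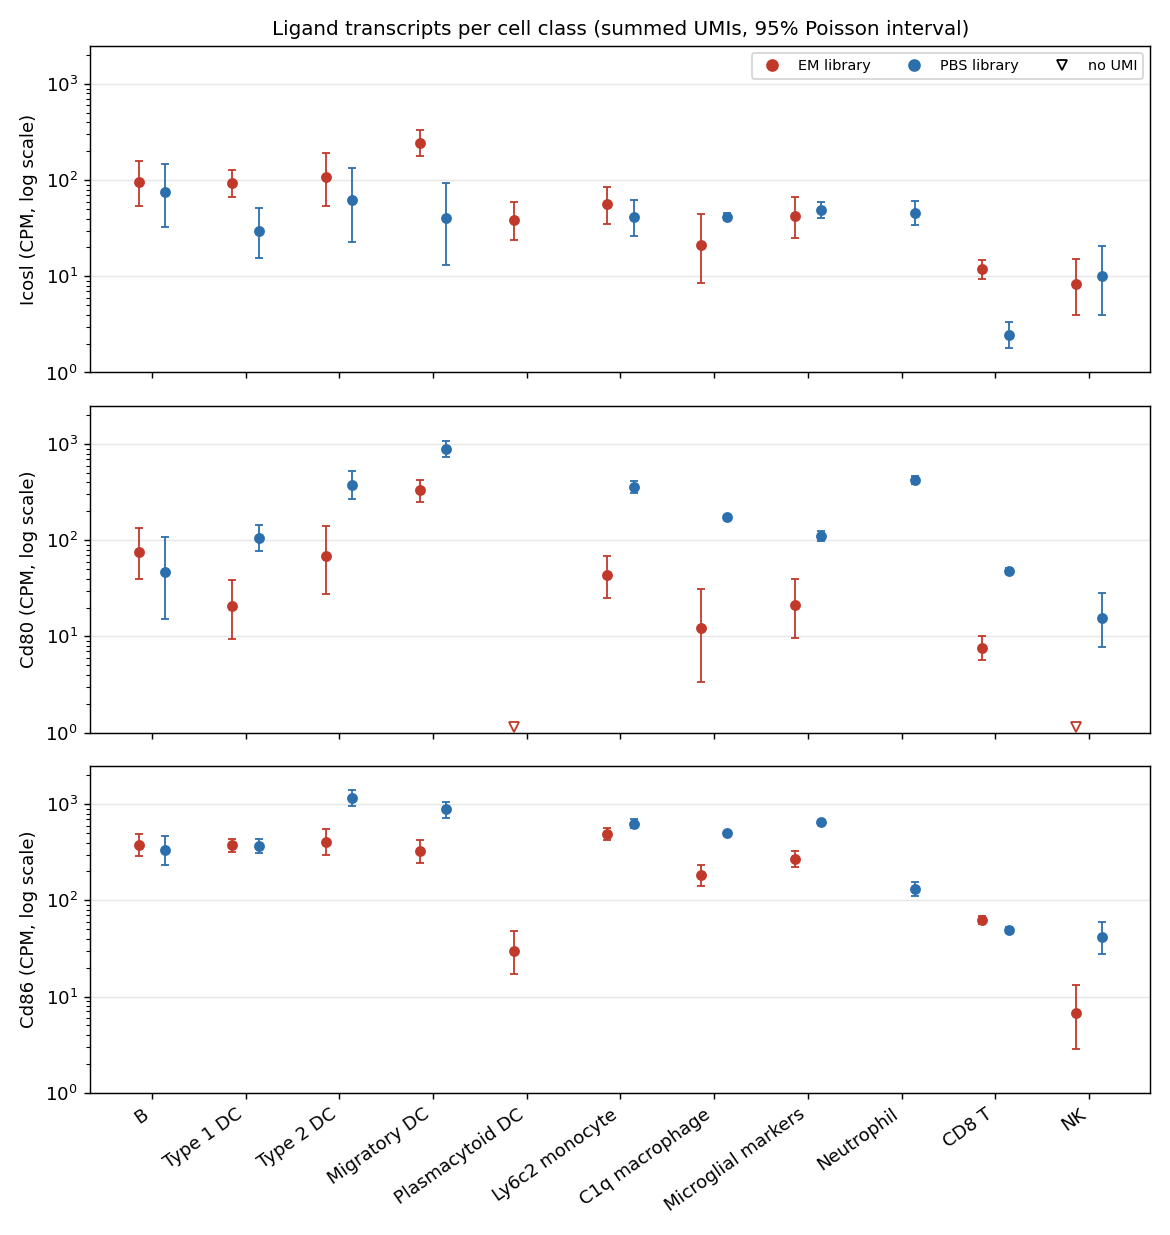
Levels of Icosl, Cd80 and Cd86 in CPM on a log scale, by cell class, with EM in red left of PBS in blue. Points are summed UMIs of 1 library with a 95% Poisson interval, and open triangles mark a class without a UMI. Icosl lies higher in EM in type 1 and migratory dendritic cells, and Cd80 lies lower in EM in the dendritic, monocyte, macrophage and microglial classes. Classes with under 10 cells in a library are not drawn for it.

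Cd86 stood at 370 CPM in EM and 667 CPM in PBS in dendritic cells, a ratio of -0.85 [-1.07 to -0.64], and the subsets differed. Type 1 dendritic cells held 376 CPM in EM and 367 CPM in PBS (0.04 [-0.29 to 0.37]). Migratory dendritic cells held 327 CPM in EM and 884 CPM in PBS (-1.44 [-1.92 to -0.96]). With gates read at 1000 UMIs, which left 13 EM and 3 PBS UMIs, that ratio was -0.37 [-2.23 to 2.08] and no longer past 2-fold, and the Cd80 ratio of these cells was -0.95 [-2.09 to 0.32]. In EM the 3 dendritic subsets had overlapping intervals, from 327 to 410 CPM, whereas in PBS type 1 cells lay below the migratory and the type 2 cells (1164 CPM). B cells held 376 CPM in EM and 338 CPM in PBS (0.16 [-0.47 to 0.80]).

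In macrophages Cd86 stood at 356 CPM in EM and 509 CPM in PBS (-0.52 [-0.70 to -0.34]). Monocytes held 490 CPM in EM and 627 CPM in PBS (-0.36 [-0.62 to -0.10]), C1q macrophages 183 CPM in EM and 503 CPM in PBS (-1.46 [-1.85 to -1.09]), and cells with microglial markers 271 CPM in EM and 661 CPM in PBS (-1.29 [-1.57 to -1.01]). The microglial ratio compares cells of different clusters: in cluster 14, with most of the EM cells, Cd86 stood at 251 CPM in EM, and in cluster 18, with most of the PBS cells, at 717 CPM in EM (7 cells) and 786 CPM in PBS. In monocytes the interval included equality after median-of-ratios scaling (-0.13 [-0.39 to 0.13]). The macrophage difference varied with the cells compared. Cluster 3 held 887 PBS and no EM macrophages. In cluster 10 (267 EM and 132 PBS cells) the ratio turned to 0.71 [0.03 to 1.40], in cluster 11 (120 EM and 301 PBS cells) it was -0.23, and with every cell at equal weight it was -1.31. For Cd80 the ratio was -2.25 in cluster 10 and -2.44 in cluster 11. CD8 T cells held Cd86 at 62.5 CPM in EM and 49.6 CPM in PBS (0.33 [0.16 to 0.51], and 0.28 [-0.03 to 0.60] after thinning), while NK cells held 6.66 CPM in EM and 41.3 CPM in PBS.

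The receptors were low in B cells and in the dendritic, monocyte, C1q macrophage and microglial classes. In B cells, dendritic cells, Ly6c2 monocytes, C1q macrophages and cells with microglial markers, Ctla4 lay between 18.7 and 51.0 CPM in EM and between 10.4 and 103 CPM in PBS. Cd28 lay between 7.65 and 38.3 CPM in EM and between 0 and 7.23 CPM in PBS in the same classes, and Icos between 10.2 and 28.0 CPM in EM and between 5.08 and 65.6 CPM in PBS. These receptor levels come from 127 UMIs or fewer per class and library. The highest PBS levels of Ctla4 and Icos here were those of the 55 B cells. The 54 of them in cluster 20 held Ctla4 at 57.4 CPM and Icos at 19.1 CPM. Icosl in monocytes was 56.1 CPM in EM and 41.6 CPM in PBS, in C1q macrophages 21.4 CPM in EM and 41.8 CPM in PBS, and in cells with microglial markers 42.0 CPM in EM and 49.1 CPM in PBS, and all 3 intervals of the ratio included equality. Cd86 in Foxp3-positive T cells was 25.6 CPM in EM and 58.7 CPM in PBS (-1.20 [-1.88 to -0.50]), and in CD4 T cells 37.6 CPM in EM and 53.8 CPM in PBS (-0.52 [-0.94 to -0.10], and -0.01 under the stricter gate).

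The balance of the B7 ligands differed as well. Cd80 made up 7.89% [5.01 to 11.7] of Cd80 and Cd86 UMIs in EM macrophages and 26.7% [25.8 to 27.6] in PBS macrophages. It made up 8.13% in EM and 36.3% in PBS in monocytes, 5.17% in EM and 22.5% in PBS in type 1 dendritic cells, and 10.9% in EM and 49.2% in PBS in CD8 T cells. In migratory dendritic cells it was 50.4% [41.0 to 59.9] in EM and 50.5% [43.7 to 57.2] in PBS, so both ligands were lower in EM there by a similar factor. T cell markers in macrophages stood at 1.18% of their level in T cells in EM and 0.624% in PBS. Malat1, a nuclear RNA, stood at 1197 CPM in EM and 2694 CPM in PBS in macrophages, and its part in these results was not tested.

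**Figure D4:**
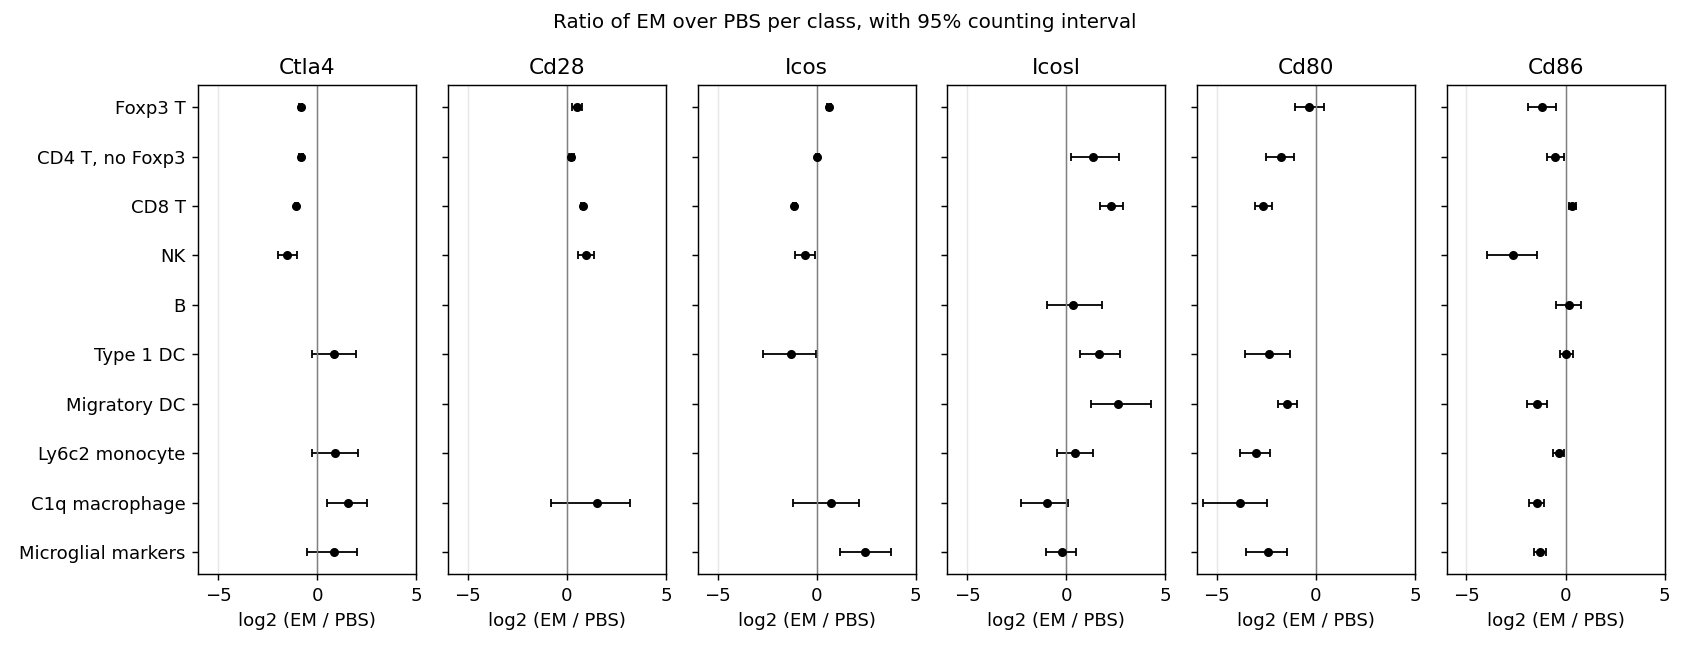
Log2 ratio of EM over PBS for each gene (panels) and class (rows), with the 95% counting interval and a grey line at equality. Values with under 20 UMIs over both libraries are not drawn. Ctla4 lies left of the line in the T cell and NK classes and Cd28 right of it, Icos lies on both sides, and Cd80 lies left of it in CD4 and CD8 T cells and in the dendritic, monocyte, macrophage and microglial classes.

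Read against all genes, the members' counts were as follows. In CD8 T cells 3 of 6 members (Ctla4, Icos and Cd80) were at least 2-fold lower in EM, where 13.3% of the 12133 genes with at least 20 UMIs were, and 1 (Icosl) was at least 2-fold higher, where 4.04% were. With median-of-ratios scaling Ctla4 (-0.91) and Icos (-0.98) were no longer past 2-fold in CD8 T cells. In Foxp3-positive T cells 1 of 5 measured members (Cd86) was 2-fold lower and none was 2-fold higher, where 5.92% of genes were lower and 6.80% were higher. Of 6 members in CD4 T cells, 1 (Cd80) was lower, against 7.26%, and 1 (Icosl) was higher, against 4.25%. In NK cells 2 of 4 (Ctla4 and Cd86) were lower, against 8.73% of genes, and none was higher, against 5.69%. In B cells neither of the 2 measured members (Icosl and Cd86) was past 2-fold, against 14.5% of genes lower and 10.2% higher.

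In dendritic cells 1 of 5 (Cd80) was lower, against 9.01%, and 1 (Icosl) was higher, against 6.95%. In type 1 cells 2 of 5 (Icos and Cd80) were lower, against 11.6%, and 1 (Icosl) was higher, against 7.33%. In migratory cells 2 of 3 (Cd80 and Cd86) were lower, against 9.62%, and 1 (Icosl) was higher, against 13.3%. In macrophages 1 of 6 (Cd80) was lower, against 24.8% of genes, a share near the background. Another 2 (Ctla4 and Cd28) were higher, against 7.83%, at 37.4 CPM or less. The Cd28 ratio of macrophages, from 6 EM UMIs, was 1.27 [-0.25 to 2.50], and its interval included equality. In monocytes 1 of 4 (Cd80) was lower, against 18.7%, and none was higher, against 8.88%. In C1q macrophages 2 of 6 (Cd80 and Cd86) were lower, against 29.7%, a share near the background. There 2 (Ctla4 and Cd28) were higher, against 10% of genes (1125 of 11225). For Cd28, 3 EM UMIs gave 1.52 [-0.81 to 3.18], which included equality. For Ctla4, 10 EM UMIs gave 1.56 [0.46 to 2.48], and the ratio was -0.085 after thinning. Macrophages served as the background class for the receptors, so their higher receptor counts are not read as a result. The part of RNA carried over from T cells in them was not tested. All these background shares count a gene without a UMI in 1 library as past 2-fold, and EM macrophages were shallow. Genes with UMIs in both libraries were 9873 of 11225 measured in C1q macrophages and 10691 of 11403 in macrophages. In cells with microglial markers 2 of 5 (Cd80 and Cd86) were lower, against 27.0%, and 1 (Icos, 28.0 CPM in EM) was higher, against 8.57%. The median ratio of all measured genes was -0.16 in CD8 T cells and -0.24 in macrophages, and between -0.04 and -0.09 in Foxp3-positive, CD4 and dendritic cells, so part of a lower value in the first 2 classes is shared by most genes.

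**Figure D5:**
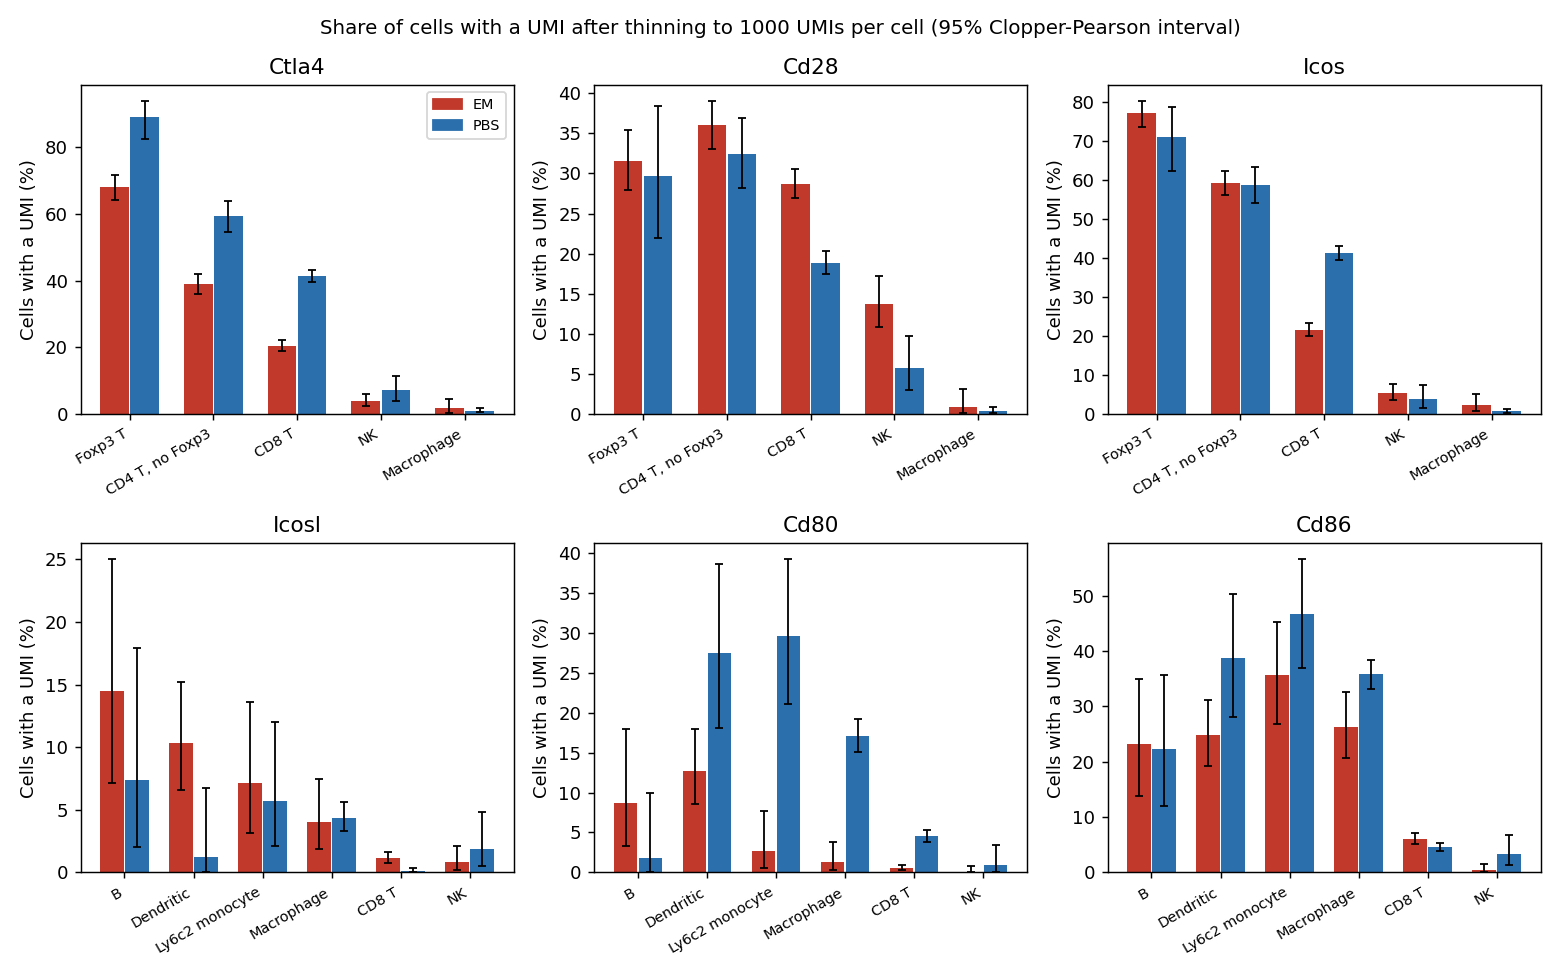
Percent of cells with a UMI of each gene after thinning every cell to 1000 UMIs, with exact 95% intervals, by class, EM in red left of PBS in blue. Ctla4 shares are lower in EM in Foxp3-positive, CD4 and CD8 T cells, Icosl is higher in EM in dendritic cells, and Cd80 is lower in EM in dendritic cells, monocytes and macrophages. Macrophages (receptors) and NK cells (ligands) give the background.

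Of 58 other genes of the pathway, all found in the tables, 48 were measured in Foxp3-positive T cells. Of these, 5 were at least 2-fold higher in EM, against 6.80% of all measured genes, and none lower, against 5.92%. The median ratio of the pathway genes with UMIs in both libraries was 0.01, against -0.04 over all genes. Tlr7, a receptor for single-stranded RNA, had 29 UMIs in EM and none in PBS, at least 3.42-fold higher in EM against a limit of 3 counts in PBS, with an exact interval of the log2 ratio above 1.38. Pdcd1, which encodes the inhibitory receptor PD-1, stood at 79.3 CPM in EM and 29.4 CPM in PBS (1.43 [0.70 to 2.26]). Irf5, an interferon regulatory factor, had the third of the highest ratios (1.36) but an interval that included equality. Among the lowest ratios were those of Relb, an NF-kB subunit (-0.94), and Cd83, a membrane protein that stabilises MHC class II and CD86 (-0.85).

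In CD4 T cells 3 of 49 measured genes were 2-fold higher, against 4.25% of all genes, and none lower, against 7.26%. The pathway median was 0.01 against -0.09 over all genes. Il2, the T cell growth factor whose gene CD28 signals induce, stood at 14.2 CPM in EM and 3.52 CPM in PBS (2.02 [0.82 to 3.44]), Il2ra at 391 CPM in EM and 106 CPM in PBS (1.88 [1.66 to 2.11]), and Bcl6, the factor of follicular helper cells, at 36.7 CPM in EM and 18.1 CPM in PBS (1.02). Il21 (-0.74), a cytokine of follicular helper cells, Dnmt1 (-0.70), a DNA methyltransferase, and Pdcd1 (-0.61) had the lowest ratios. The CD4 class included 164 EM and 14 PBS cells of cluster 2, which held most Foxp3-positive cells. Their part in the Il2ra ratio was not tested. In CD8 T cells 3 of 53 were 2-fold higher, against 4.04% of all genes, and 6 lower, against 13.3%, with a median of -0.11 against -0.16. Il2 had 17 EM and 5 PBS UMIs there (3.11 [1.61 to 4.90]), and Tlr7 had a ratio of 2.12. The lowest were Il21 (-1.91), Tlr4 (-1.83), the receptor for bacterial lipopolysaccharide, and Cd200r1 (-1.42), an inhibitory receptor.

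In dendritic cells 4 of 42 pathway genes were 2-fold higher, against 6.95% of all genes, and 3 lower, against 9.01%. The pathway median was 0.10 against -0.07 over all genes. Cd40, through which helper T cells activate dendritic cells, stood at 161 CPM in EM and 57.1 CPM in PBS (1.50 [0.97 to 2.05]). Il2ra had a ratio of 1.85 and Def6, a signalling protein that takes part in CTLA-4 trafficking, 1.11. Pdcd1lg2, which encodes the PD-1 ligand PD-L2 of the B7 family, stood at 86.2 CPM in EM and 200 CPM in PBS (-1.21 [-1.65 to -0.79]), beside Cd200r1 (-1.31). In macrophages 6 of 50 were 2-fold higher, against 7.83% of all genes, and 9 lower, against 24.8%, with a median of -0.02 against -0.24. This class differed in make-up: Ly6c2 monocytes gave 392198 of its 722539 EM UMIs and 553312 of its 13073905 PBS UMIs. The part of that difference in the macrophage ratios that follow was not tested. Pdcd1lg2 stood at 15.2 CPM in EM and 171 CPM in PBS (-3.49 [-4.49 to -2.65]), Pik3r1, a PI3 kinase subunit, at 80.3 CPM in EM and 492 CPM in PBS (-2.62), and Cd83 at 137 CPM in EM and 419 CPM in PBS (-1.61). Il2ra (3.86), the B7 relative Cd276 (3.29) and the T cell kinase Lck (1.96) had the highest ratios, at 22.1 CPM or less in EM. In B cells 1 of 27 was 2-fold higher, against 10.2% of all genes, and 8 lower, against 14.5%, with a median of -0.39 against -0.12. Ciita, the master factor of MHC class II genes, stood at 319 CPM in EM and 141 CPM in PBS (1.18 [0.33 to 2.12]), with Cd40 (0.95) and Cd83 (0.80) next. Prkch (-3.80), a protein kinase C, was lowest, from 2 EM UMIs.

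Over the 25 points of class and library with at least 50 cells, the level of each member was compared with those of 7203 genes by Pearson's r of log2(CPM + 1). The points share 2 libraries and their depth, so r is a description. Ctla4 was most like Agfg1 (r = 0.94), Icos (0.93) and Cd5 (0.91), and Cd28 most like Thy1 (0.97), Il27ra (0.93) and Xlr4a (0.93). Icos was most like Sntb1, Septin7 and Ctla4 (0.93 each). Among ligands, Icosl was most like Gca and Gpr137b (0.89 each) and A530032D15Rik (0.87), and Cd86 most like Gm6377 (0.92), Stard9 (0.90) and Cd83 (0.88). Cd80 had the weakest best matches, Mthfsl (0.84), Bcl2a1b (0.81) and Atp2b1 (0.79). Between members, r was 0.72 for Cd80 and Cd86, 0.78 for Icosl and Cd86 and 0.46 for Icosl and Cd80.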

How the data were processed

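Single-cell RNA was counted in 1 EM and 1 PBS library. As deposited, each matrix gives unnormalized UMI counts, whole numbers per gene and barcode. The submitters' processing notes name STARsolo, CASAVA 1.8 and mm10 (the assembly GRCm38). Annotation and cell calling: not given in the sources used here. All CPM, ratios and shares were computed here from the deposited counts. Positions come from the GENCODE annotation of GRCm38, in which 31184 of 31253 genes were found.

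Cells with at least 200 genes and 500 UMIs were kept if mitochondrial UMIs made up 20% or less. A cell took the lineage with the highest share of its marker list detected, if at least 2 markers were found and no other lineage reached over 50% of that share. Cells that did not meet this numbered 743 in EM and 558 in PBS for mixed markers and 117 in EM and 464 in PBS for few markers. They entered no class. T cells were split by UMIs of Foxp3, Cd4, Cd8a, Cd8b1 and Trdc, dendritic cells by type 1, type 2 and migratory lists, and macrophages into Ly6c2 monocytes (more Ly6c2 than C1q UMIs) and C1q macrophages. Scrublet (scanpy 1.11.5) called 3 EM and 0 PBS cells, too few to have worked, so doublets were removed only by the marker rule. The members and lists were chosen with earlier results of these data known, the series having been analysed before.

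UMIs were summed per class and library. The log2 ratio of EM over PBS carries an exact 95% conditional binomial interval, shares carry Clopper-Pearson intervals and CPM Poisson intervals. The NF-kB and interferon letter patterns replaced longer or looser forms that had been searched first. Thinning drew 1000 UMIs per cell. The ratio step was tested on simulated counts. Genes compared had at least 20 UMIs over both libraries, and called means at least 2-fold. Named were the 6 members, the 3 highest and 3 lowest pathway genes per class, some of which are not reported here, and the 3 genes most like each member. Values within clusters and CD8 parts were chosen after seeing the data. Clusters came from 2000 variable genes, 30 components and Leiden (leidenalg 0.10.2) at resolution 1. Type 2 and migratory dendritic cells and type 1 cells of PBS numbered under 50 and are given as descriptions. Alternatives covered depth, cell weights, gates, clusters, cell filters, scaling, doublet scores and shared barcodes. No other columns of per-sample values were present.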

Additional observations from a re-analysis of the deposited data

Results flagged for a closer look

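Icos differed between EM and PBS in opposite directions in T cell subsets, with a log2 ratio of EM over PBS of 0.61 in Foxp3-gated T cells and -1.14 in CD8 T cells. Cd86 was likewise higher in EM in CD8 T cells, with a ratio of 0.33, and lower in C1q macrophages, with a ratio of -1.46. The counting intervals of each pair lie on opposite sides of equality. With 1 library per group, the difference between the classes was not tested for either gene. Cd86 in CD8 T cells is low, at 62.5 CPM in EM and 49.6 CPM in PBS, and after thinning to 1000 UMIs per cell its ratio was 0.28 [-0.03 to 0.60], which includes equality. The C1q macrophages of EM had a median of 842 UMIs against 10092 in PBS. Macrophages of the 2 libraries also lay largely in different clusters, and cluster 3 held 887 PBS and no EM cells. The Cd86 ratio of macrophages was 0.71 [0.03 to 1.40] in cluster 10 (267 EM and 132 PBS cells). It was -0.23 in cluster 11 (120 EM and 301 PBS cells).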

How the results depend on the processing

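No paired analysis was possible because each group is 1 library. Of 82 alternative values for the 8 leading ratios, 62 moved by less than their counting interval, 20 moved further and none changed the sign of a ratio whose interval excluded equality. Icosl in B cells and in macrophages, whose intervals include equality, kept its sign under 6 of 10 alternatives each. Cd86 in macrophages moved most often, to -0.74 with cells thinned to 1000 UMIs, -1.31 with equal weight per cell, -1.07 under the stricter gate, -0.73 with clusters, -0.21 under the stricter cell filter, -0.28 with median-of-ratios scaling and -0.77 with gates read at 1000 UMIs. Cd86 in dendritic cells moved to -1.43 thinned, -1.16 with equal weight, -1.33 under the stricter gate and -1.21 with gates read at 1000 UMIs, and Cd80 there to -1.28 thinned and -1.28 with gates read at 1000 UMIs. Ctla4 in Foxp3-gated cells moved to -0.95 with equal weight, -0.99 under the stricter gate, -1.06 with gates read at 1000 UMIs and -0.44 when 2 regulatory markers replaced Foxp3 (1153 EM and 362 PBS cells), and Icos there to 0.50 with equal weight and 0.33 under the stricter gate. Icosl in B cells moved to -1.53 under the stricter gate, from 2 EM and 7 PBS UMIs. The cause was not tested for any of these.

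Of 481 values for 49 other ratios, 416 stayed within the interval of the ratio as reported. Among the 33 of these ratios whose interval excluded equality the sign turned 4 times: Icos in NK cells to 0.35 thinned and 0.96 with gates read at 1000 UMIs, Ctla4 in C1q macrophages to -0.085 thinned, and Icos in type 1 dendritic cells to 0.64 under the stricter gate. Among the 16 whose interval included equality it turned 22 times, in 11 ratios. With no minimum of UMIs (at least 1 in both libraries), genes at least 2-fold higher and lower numbered 899 and 1602 (569 and 495 with it) in Foxp3-gated T cells, 843 and 1653 (413 and 705) in CD4 T cells, 788 and 1540 (446 and 685) in NK cells, 1075 and 1640 (262 and 374) in B cells and 1051 and 1514 (509 and 660) in dendritic cells. They numbered 940 and 1721 (399 and 632) in type 1 and 1235 and 1331 (360 and 260) in migratory dendritic cells, 1106 and 2206 (490 and 1033) in monocytes and 1695 and 1981 (1125 and 3333) in C1q macrophages. The higher count alone moved past 1.5 times in CD8 T cells, 1392 (490), macrophages, 1731 (893), and cells with microglial markers, 1528 (767). EM depth limits the macrophage classes, and 4 EM Cd80 UMIs carry the C1q macrophage ratio. Intervals cover counting error only, not the spread between animals.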
